A study of Mus musculus with 28 samples.

Results

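Among 6 germ-free (GF) libraries of CD4+ T cells labelled as treated with an antibody against CD3 (aCD3), 3 had Lag3 below 100 TPM, and these 3 were set against all 10 GF isotype libraries. The comparison thus held 13 of the 28 libraries of the series. It asks whether anything differed in treated libraries that lacked the large Lag3 change. Each library came from lamina propria of the small intestine, sorted for live cells positive for CD45, CD90.2, TCRb and CD4. Mice of all groups carried the T-bet-ZsGreen reporter, which marks expression of the transcription factor T-bet (Tbx21) by a green protein. The antibody's dose and the time after injection are not used here. GF mice have no gut flora, and SPF (specific-pathogen-free) mice, used below only to define the response, have one. The 3 Lag3-low libraries were replicates F1, M3 and M4 (1 female, 2 males), the isotype group held 5 females and 5 males, and the Lag3-high libraries were M1, M2 and M5 (3 males). The SPF groups held 6 isotype and 6 aCD3 libraries. The labels do not say that replicates are separate animals, so p-values measure the spread between these libraries, which may be partly technical.

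The antibody binds the CD3 chains that carry signals from the T cell receptor into the cell. Given to mice, it activates T cells, drives many of them to divide or die, and in the gut is known to favour cells that make the suppressive cytokine interleukin-10. Lag3, an inhibitory receptor that binds MHC class II, is raised on activated T cells and marks, with Il10, the type 1 regulatory (Tr1) cells.

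Lag3 chose the libraries, so its levels describe the choice and no test of it is reported; it stays in the counts over all genes and lists. Lag3 (NM_008479, mm10 chromosome 6, 124904359 to 124911705) was 9.59 TPM in F1, 17.03 TPM in M3 and 12.3 TPM in M4. The isotype libraries ran from 5.41 TPM through a median of 11.04 TPM to 18.5 TPM, so the 3 Lag3-low libraries lay within the isotype range. That they were treated is known here from the labels alone; antibody without effect, antibody not received and a wrong label cannot be told apart. TPM here is the read count of a gene scaled by its length and by library size. The nearest aCD3 library inside the limit of 100 TPM was M3 at 17.03 TPM, and the nearest outside it was M2 at 452.02 TPM. A gene that follows Lag3 among the aCD3 libraries was brought near the isotype level by the choice itself. All p-values below therefore hold only given that choice, and the levels and their overlap come first. In bulk libraries, fewer cells of a type and less RNA per cell cannot be told apart.

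The Lag3-low libraries carried the marker genes of CD4+ T cells. Cd4, the co-receptor used in the sort, was 228.1 TPM in F1, 248.8 TPM in M3 and 258.04 TPM in M4, within the isotype range of 192.9 to 274.9 TPM. The CD3 chain gene Cd3e, part of the antibody's target, was 384.0, 350.4 and 367.8 TPM in the same order, again within the isotype range of 323.3 to 409.4 TPM. Cd3d, Cd2 and Ptprc also lay within their isotype ranges in all 3. The costimulatory receptor gene Cd28 was 169.9 TPM in F1, 267.2 TPM in M3 and 183.9 TPM in M4, on both sides of the isotype range of 197.4 to 258.9 TPM. Single libraries lay outside the range for Cd5 (M4, 132.1 against at most 121.5 TPM), Thy1 (M3, 449.4 against at least 454.7 TPM), Cd3g (F1, 277.8 against at least 286.4 TPM) and Cd247 (M3, 39.6 against at most 38.8 TPM). Cd8b1, a CD8 chain gene, was at most 0.932 TPM in the 3 libraries. Low Cd8b1 does not show that cells with Cd8a were few, as isotype M4 held 60.02 TPM of Cd8a beside 1.199 TPM of Cd8b1. In all 3 libraries Cd8a lay above the isotype median and below the highest isotype library other than M4 (6.997 TPM). Reads in genes ran from 6765528 to 17860632 over the 13 libraries, and the 3 Lag3-low libraries held 9778476 to 17793822. Their correlation with the isotype mean over 12238 genes (Pearson's r of 0.970 to 0.974) lay within that of the isotype libraries with the mean of the other 9 (0.963 to 0.977). The Lag3-high libraries stood at 0.921 to 0.927. Histone genes, 105 in number, took 5.67% to 7.79% of summed TPM in the Lag3-low and 4.05% to 9.54% in the isotype libraries, against 23.4% to 26.3% in the Lag3-high libraries.

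Across the transcriptome, 0 of 12238 genes passed the threshold, an adjusted p under 0.05 in limma on log2(TPM + 1) with a sex term (called: 0%; lowest adjusted p = 0.846). At an unadjusted p under 0.05 there were 576 genes (4.71%), 403 higher (3.29%) and 173 lower (1.41%) in the Lag3-low libraries. limma-voom on reads recovered from the TPM values also called 0 genes, with 541 at an unadjusted p under 0.05. With array weights, whose estimate did not converge and gave M4 the most weight, 164 genes passed, 105 higher and 59 lower. The median gene differed by 0.04 on the log2 scale, and 90% of genes lay between -0.26 and 0.33. Under median of ratios as the scaling the median difference was 0.003, so a surplus of higher over lower genes depends in part on the scaling. The same test on the 3 Lag3-high libraries against the same 10 controls called 6912 of 12232 genes (56.5%), 1458 higher (11.9%) and 5454 lower (44.6%); those libraries were chosen by Lag3 as well. A p above the threshold does not show equal levels, so the width of the intervals matters. The 95% confidence interval of a difference had a median half-width of 0.27 on the log2 scale, and for 11136 genes (91.0%) it lay wholly within 1 either side of 0 on the log2(TPM + 1) scale, which for genes near 1 TPM can hold a larger change in TPM itself.

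Il10, the cytokine of Tr1 cells, was 93.5 TPM in F1, 108.6 TPM in M3 and 140.7 TPM in M4. The isotype libraries spanned 44.3 to 164.6 TPM with a median of 129.1 TPM, so every Lag3-low library lay inside their range. The log2 difference was 0.06 with an interval from -0.75 to 0.87 (limma adjusted p = 0.995). In SPF mice the same gene differed by 2.81, outside that interval, and the Lag3-high libraries held 403.5, 587.8 and 630.0 TPM.

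Mki67, a protein of dividing cells, was 46.5 TPM in F1, 159.7 TPM in M3 and 67.6 TPM in M4, against 32.7 to 118.0 TPM in the isotype libraries. M3 lay above every isotype library and the other two lay inside the range. The log2 difference was 0.13, with an interval from -0.83 to 1.08 (limma adjusted p = 0.988). The sample numbers in the column names fall into a lower-numbered set (25 to 33) with M3 and 6 isotype libraries and a higher-numbered set (48 to 54) with F1, M4 and 4 isotype libraries; what the numbers stand for is not given in the sources used here. In the isotype libraries Mki67 was 88.9 to 118.0 TPM in the lower-numbered and 32.7 to 56.02 TPM in the higher-numbered set. Within the sets the log2 differences were 0.66 for M3 and 0.33 for F1 and M4.

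Of the other fixed genes, none passed. Ifng, the main cytokine of Th1 cells, was 183.6, 183.6 and 180.1 TPM in F1, M3 and M4, near the low end of the isotype range of 177.4 to 305.9 TPM, with a log2 difference of -0.25 (interval from -0.52 to 0.02). Tbx21, which encodes T-bet, was 95.1, 83.6 and 83.6 TPM, inside the isotype range of 78.1 to 120.7 TPM (-0.03, interval from -0.24 to 0.17). Gata3, the regulator of type 2 helper cells, was 56.9, 98.2 and 61.5 TPM, inside the range of 55.6 to 110.4 TPM (-0.15, interval from -0.66 to 0.36). Foxp3, the regulator of regulatory T cells, was 12.7, 31.5 and 16.8 TPM against 9.47 to 50.05 TPM (-0.14, interval from -1.12 to 0.84). The Foxp3 interval was the widest of these 4. Within the lower-numbered and higher-numbered sets the differences were 0.04 and 0.22 for Foxp3, 0.07 and -0.02 for Gata3, -0.17 and 0.01 for Tbx21 and -0.07 and 0.30 for Il10, so at least 1 set had the other sign from the pooled value for each of these genes. For Ifng they were -0.30 and -0.23. The isotype level of Foxp3 was 19.5 to 50.05 TPM in the lower-numbered set and 9.47 to 17.6 TPM in the higher-numbered set.

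**Figure D1:**
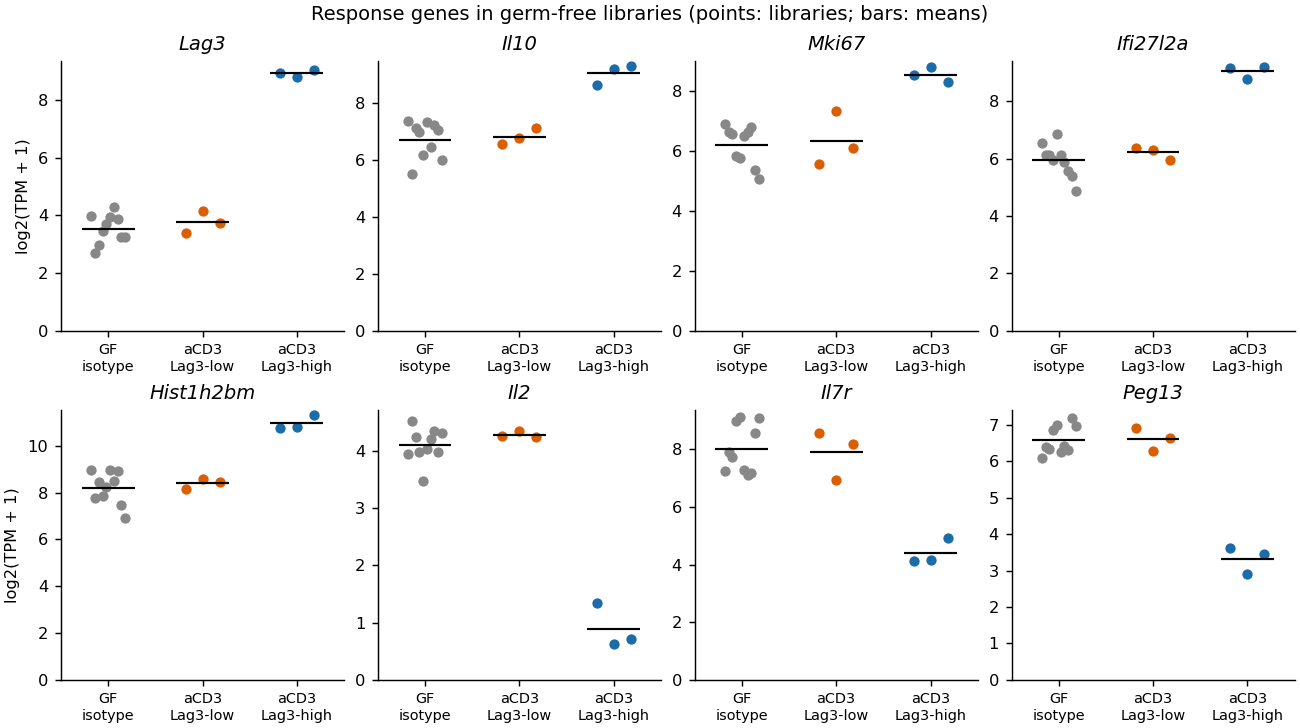
Levels of 8 genes, as log2(TPM + 1), in 10 GF isotype, 3 Lag3-low and 3 Lag3-high GF aCD3 libraries; each point is a library and each bar a mean. For Lag3, Il10, Mki67, Ifi27l2a, Hist1h2bm, Il2, Il7r and Peg13 the Lag3-low points lie within or next to the isotype points, except that 1 Mki67 point (M3) and 1 Il7r point (M3) lie just past them. The Lag3-high points lie apart in all 8 genes.

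The response to aCD3 was defined in SPF libraries, which the Lag3 rule did not use and which share no control with the GF libraries. Of 12015 genes tested there, 7944 passed (66.1%), 1744 higher (14.5%) and 6200 lower (51.6%), and 5103 (42.5%) did not overlap between the groups. Among those that passed were 570 higher (4.74%) and 1397 lower (11.6%) by at least 1 on the log2 scale. Of the 570, 518 were also tested in the Lag3-low comparison. Their median difference was 1.68 in SPF, 1.55 in the Lag3-high and 0.03 in the Lag3-low libraries. None of the 518 was higher in every Lag3-low library than in every isotype library, and none was lower, against 0.564% of all genes. Of the 1397, 1366 were tested. Their medians were -1.27 in SPF, -1.08 in the Lag3-high and 0.07 in the Lag3-low libraries, and 10 of them (0.732%) were higher in every Lag3-low than in every isotype library and 0 were lower, beside 46 higher and 22 lower of all 11759 genes tested in both. Regardless of overlap, 916 of the 1366 had a difference above 0, beside 7386 of the 11759. For 509 of the 518 (98.3%) and 1345 of the 1366 (98.5%) the interval of the Lag3-low difference did not hold the SPF value, beside 8205 of all 11759 genes tested in both (69.8%). The 518 and the 1366 were picked for SPF values of at least 1 in size, so most intervals around a difference near 0 leave these values out. The SPF value was taken without its own error. Across 11759 genes tested in both, the slope of the Lag3-low on the SPF difference was -0.019 (Pearson's r of -0.058), against 0.789 for the Lag3-high libraries. These are descriptions across genes, which are not independent replicates, and the Lag3-low libraries were chosen for a low response gene.

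**Figure D2:**
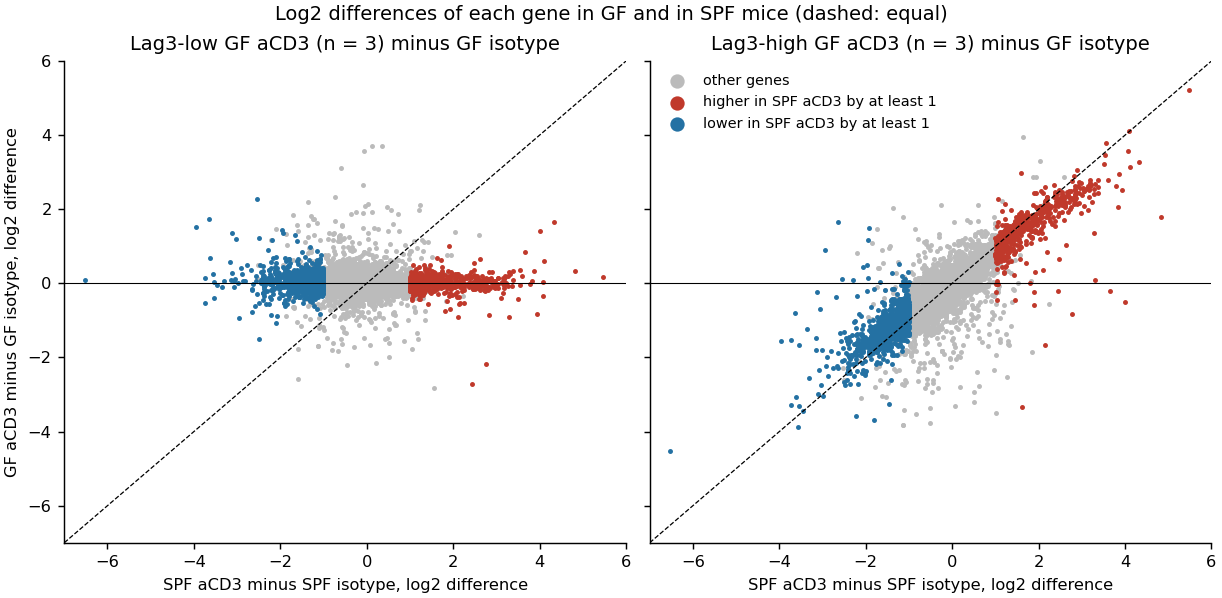
Log2 difference of each gene after aCD3 in SPF mice (x) against that in GF mice (y), for the Lag3-low libraries on the left and the Lag3-high libraries on the right; colours mark genes that passed in SPF with a change of at least 1, and the dashed line marks equal values. The Lag3-low cloud lies flat (slope -0.019) and the Lag3-high cloud rises (slope 0.789).

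The 3 libraries differed among themselves, and the isotype medians of the 2 sets of sample numbers lay apart for the genes raised in SPF. Over the genes raised in SPF, the median difference from the isotype mean was -0.17 in F1, 0.29 in M3 and -0.06 in M4. In the isotype libraries it was 0.09 to 0.29 in the lower-numbered set and -0.40 to -0.15 in the higher-numbered set. M3 and F1 thus lay within the range of their own set and M4 lay above it. Over the genes lowered in SPF the medians were 0.02, 0.13 and 0.07, with isotype ranges of -0.14 to 0.05 (lower-numbered) and 0.02 to 0.19 (higher-numbered). There M3 lay above its set, M4 within its set and F1 just below it. The Lag3-high libraries stood at 1.45 to 1.56 and at -1.21 to -1.01. The summed level of 30 proliferation genes was 1083 TPM in M3, above the 867.3 to 1010 TPM of the lower-numbered isotype libraries. It was 647.3 TPM in F1 and 734.8 TPM in M4, against 513.0 to 666.4 TPM in the higher-numbered ones. A fit with the set as a covariate called 0 genes, with 775 at an unadjusted p under 0.05. The part of the set in these medians was not tested.

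**Figure D3:**
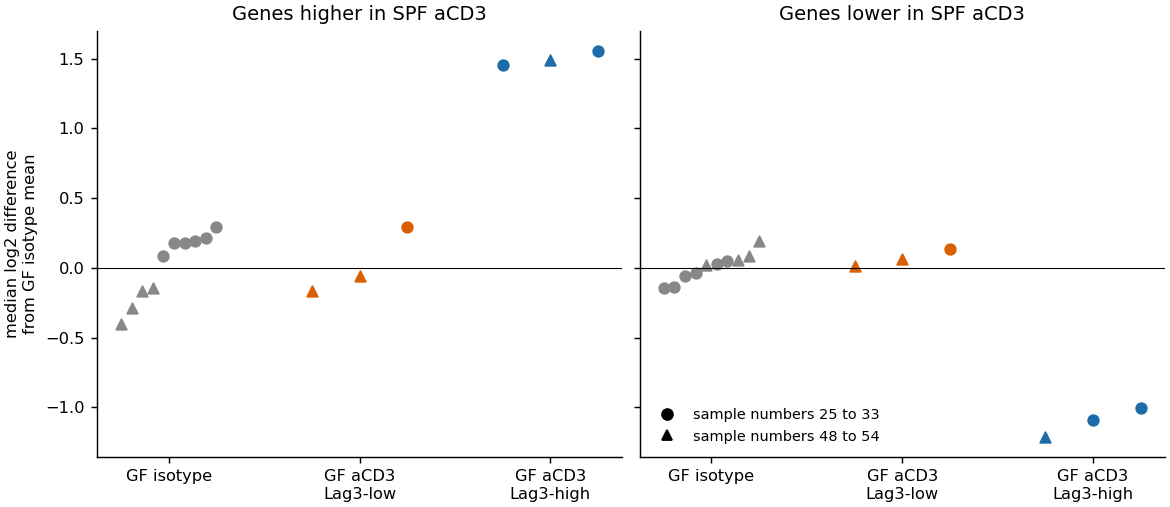
Median log2 difference from the GF isotype mean over genes higher (left, 518 genes) or lower (right, 1366 genes) in SPF aCD3, 1 point per GF library; isotype libraries are compared with the mean of the other 9, and circles and triangles mark the lower-numbered and higher-numbered sets. The Lag3-low points lie between -0.17 and 0.29 on the left, and the Lag3-high points lie above 1.4.

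The genes with the largest SPF changes are given one by one in the Lag3-low libraries. Havcr2, which encodes the inhibitory receptor Tim-3, was 0.46, 1.37 and 0.52 TPM in F1, M3 and M4, against 0.39 to 1.18 TPM in isotype, while SPF aCD3 averaged 30.7 TPM. Ifi27l2a, an interferon-induced gene, was 81.7, 78.9 and 61.3 TPM against 28.4 to 114.6 TPM, and its SPF aCD3 mean was 672.8 TPM. Perp, a p53 target, was 1.44, 2.86 and 2.54 TPM against 0.986 to 3.11 TPM. All 3 of these genes overlapped the isotype libraries. The chemokine gene Ccl3 was 29.6, 15.8 and 10.9 TPM within an isotype range of 6.08 to 43.9 TPM, and the histone gene Hist1h2bm was 280.5, 385.7 and 353.7 TPM within 121.0 to 503.2 TPM. Cd68 was 13.1, 8.33 and 9.34 TPM within 3.29 to 18.4 TPM. Ifitm3, an interferon-induced membrane protein, was 11.1, 3.44 and 7.92 TPM against 5.80 to 29.05 TPM. Its log2 difference of -0.82 (interval from -1.52 to -0.12, limma adjusted p = 0.967) had the other sign from the SPF difference of 3.94. The zinc-binding metallothionein genes rested on few reads. Mt1 was 5.18, 11.7 and 2.46 TPM against 1.46 to 31.2 TPM, and Mt2 was 1.35, 1.86 and 1.60 TPM, while 7 of 10 isotype libraries were listed at 0 and F2 at 20.9 TPM.

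At the other end, Il2, the growth factor of T cells, was 18.1, 19.3 and 17.9 TPM within the isotype range of 10.04 to 21.9 TPM, whereas SPF aCD3 averaged 0.341 TPM. Il7r, the interleukin-7 receptor of resting T cells, was 376.5, 121.9 and 287.3 TPM. Isotype libraries held 135.5 to 237.6 TPM in the lower-numbered and 378.2 to 550.8 TPM in the higher-numbered set, so each Lag3-low library lay below its own set, and F1 and M4 lay inside the pooled range. Peg13, an imprinted long noncoding RNA, was 120.5, 76.1 and 98.8 TPM within 67.8 to 145.05 TPM. Tespa1, a signalling protein of the T cell receptor pathway, was 21.06, 23.2 and 21.2 TPM within 16.4 to 28.9 TPM. The chemokine gene Xcl1 was 93.2, 122.3 and 88.9 TPM within 72.9 to 147.2 TPM, and the TNF family gene Tnfsf14 was 43.6, 42.6 and 58.5 TPM against 30.2 to 57.2 TPM. The heat shock gene Hspa1a was 309.7, 731.7 and 436.0 TPM within 146.4 to 1704 TPM, and its near-identical copy Hspa1b 493.6, 1271 and 751.4 TPM. Reads of the pair may be split between them. Isotype Hspa1a was 599.0 to 1704 TPM in the lower-numbered and 146.4 to 408.2 TPM in the higher-numbered set, so M4 lay above its own set. The log2 difference of Hspa1a was -0.53 pooled, -0.52 within the lower-numbered and 0.39 within the higher-numbered set. Jchain, a gene of antibody-secreting cells, was 16.95, 89.3 and 25.4 TPM within 8.29 to 106.7 TPM, and Hmga2-ps1, a pseudogene by its name, was 20.0, 36.2 and 16.1 TPM, above the isotype maximum of 25.3 TPM in M3. Leaving Lag3 aside, none of these genes passed in the Lag3-low comparison and none separated the groups.

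Gene lists for T cell programmes covered more genes. In 24 lists, 388 genes were tested and 0 passed, whereas 300 of 395 (75.9%) passed in SPF, beside 66.1% of all genes there. At an unadjusted p under 0.05, 10 were higher and 7 lower, together 4.38% beside 4.71% of all genes, and 2 were higher and 2 lower without overlap (1.03% beside 0.564%). List medians ran from -0.15 to 0.19 on the log2 scale, beside 0.04 for all genes tested. For 30 proliferation genes the median was 0.07, with 0 at an unadjusted p under 0.05; in SPF the median was 2.45 and 29 passed as higher. For 18 Tr1 and co-inhibitory genes it was 0.12, with 0 at that level, against 0.51 in SPF. For 26 interferon-stimulated genes it was -0.12, with 1 lower (Ifitm3), against 1.04 in SPF. For 28 early genes of T cell receptor and stress signalling it was -0.08, with 1 lower, against -1.17 in SPF. That gene was Fos, an AP-1 subunit, at 1034, 1796 and 1064 TPM against 934.4 to 2437 TPM (-0.46, limma adjusted p = 0.967). Its difference was -0.03 within the lower-numbered and -0.34 within the higher-numbered set. The NF-kB, circadian and glucocorticoid lists, with SPF medians of -0.81, -1.28 and -0.74, had medians of 0.04, -0.01 and -0.12.

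For Th1 genes the median was -0.01, for regulatory T cell genes -0.10, for Th17 genes 0.19, for type 2 genes -0.15 and for follicular helper genes 0.14. The medians were -0.03 for naive and central memory, 0.05 for tissue residency and -0.02 for cytotoxic genes. For genes of the T cell receptor complex and of its inhibition they were 0.10 and 0.14. Heat shock and metallothionein genes had medians of 0.16 and 0.19. Some summed levels lay outside the isotype range, beside the proliferation sum of M3 given above. The follicular helper genes summed to 381.4 TPM in M3 and 351.4 TPM in M4, against at most 343.4 TPM. In M3 the Th17 genes summed to 342.5 TPM against at most 292.1 TPM, and the heat shock genes to 13690 TPM against at most 12230 TPM. Smaller excesses in M3 were seen for NF-kB feedback (4402 against at most 4376 TPM) and the unfolded protein response (4095 against at most 4053 TPM). Below every isotype library lay the glucocorticoid targets in M4 (3437 against at least 3861 TPM). In F1 the unfolded protein response (3184 against at least 3340 TPM), cholesterol synthesis (578.3 against at least 579.9 TPM) and MYC and ribosome production (852.2 against at least 864.3 TPM) lay below as well. The lists for cholesterol synthesis, glycolysis, the unfolded protein response, ATF4 targets and MYC with ribosome production had medians between -0.06 and 0.02. Single members reached an unadjusted p under 0.05 without passing. They include Il4, a type 2 cytokine (-0.92), and Bcl6, the regulator of follicular helper cells (0.34), each at a limma adjusted p of 0.967.

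The 4 list genes without overlap were single members of their lists, and their differences were small. Sla, an adaptor that limits T cell receptor levels, was 82.9, 83.9 and 88.9 TPM against at most 82.1 TPM in isotype (0.24, SE 0.07, limma adjusted p = 0.931). Hk1, which starts glycolysis, was 14.5, 14.2 and 15.3 TPM against at most 14.1 TPM (0.14, SE 0.06, limma adjusted p = 0.967). Sc5d, of cholesterol synthesis, was 34.1, 36.4 and 34.8 TPM against at least 36.9 TPM (-0.23, SE 0.11, limma adjusted p = 0.967). Pes1, of ribosome production, was 13.5, 13.8 and 13.6 TPM against at least 13.9 TPM (-0.22, SE 0.07, limma adjusted p = 0.967). In each case the gap between the groups was narrower than the isotype range.

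In all, 69 genes separated the groups, 47 with every Lag3-low library above every isotype library (0.384%) and 22 with every one below (0.18%). These shares are the background itself and 0 of the 69 passed. Under median of ratios as the scaling, 32 genes lay above and 36 below. Among the genes above, Tas1r3, a subunit of sweet and umami taste receptors, was 6.75, 6.58 and 7.83 TPM against 2.52 to 6.12 TPM (0.71, SE 0.20). Ramp3, a partner of receptors for calcitonin-family peptides, was 66.3, 59.5 and 76.0 TPM against 31.8 to 56.4 TPM (0.65, SE 0.13). Trmt61b, a methyltransferase of mitochondrial transfer RNA, was 33.3, 29.2 and 29.7 TPM against 16.6 to 28.6 TPM (0.49, SE 0.17). Dgat1, which completes triglyceride synthesis, was 200.5, 224.6 and 205.6 TPM against 128.3 to 186.9 TPM (0.47, SE 0.10). The limma adjusted p was 0.846 for Ramp3 and Dgat1 and 0.967 for Tas1r3 and Trmt61b. Within 1 set of sample numbers some of the differences without overlap were smaller by over 1.5 times. In the higher-numbered set they were 0.19 for Trmt61b, 0.20 for Tnfrsf1b, 0.16 for Sla and -0.17 for Gsto1, and in the lower-numbered set -0.15 for Rps15a-ps6.

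Tnfrsf1b, which encodes TNF receptor 2, a costimulatory receptor of T cells, was 132.3, 131.6 and 129.4 TPM against 88.0 to 123.8 TPM (0.33, SE 0.08). Lamtor4, a subunit of the complex that anchors mTORC1 signalling to lysosomes, was 17.4, 18.1 and 18.9 TPM against 10.5 to 16.9 TPM (0.39, SE 0.12). Ptpa, an activator of the phosphatase PP2A, was 37.2, 38.2 and 34.3 TPM against 25.2 to 32.3 TPM (0.36, SE 0.08). Capn15, Tmc6 and Rab43 completed the set, with differences of 0.38, 0.32 and 0.32. In SPF the differences of these 10 genes ran from -2.76 for Trmt61b to 0.54 for Ptpa, where 51.6% of all genes passed as lower; Lamtor4 (0.26) and Ptpa had the same sign in both.

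Among the genes below, Rpp38, a subunit of the transfer RNA processing enzyme RNase P, was 4.53, 4.43 and 5.38 TPM against 5.44 to 10.8 TPM (-0.54, SE 0.18). Snapin, a vesicle transport protein, was 36.9, 38.2 and 36.4 TPM against 40.4 to 59.2 TPM (-0.37, SE 0.10). Trpm4, the gene of a calcium-activated ion channel, was 45.8, 38.9 and 42.1 TPM against 47.1 to 60.5 TPM (-0.34, SE 0.08). Its span holds all of the pseudogene Rpl14-ps1, which had 1715 of 2197 mean reads in the Lag3-low and 2344 of 2941 in the isotype libraries, so the level of Trpm4 itself is not known from these values. Vma21, an assembly factor of the proton pump of lysosomes, was 30.4, 30.2 and 29.9 TPM against 32.6 to 40.4 TPM (-0.27, SE 0.06). Rps24, of the small ribosomal subunit, was 476.4, 438.2 and 468.7 TPM against 481.4 to 686.0 TPM (-0.27, SE 0.10). Gsto1, Krcc1 and Nol7 differed by -0.33, -0.27 and -0.26. Rpl14-ps1 (-0.38) and Rps15a-ps6 (-0.24) are pseudogenes by their names, and their reads may come from the parent genes. Levels are uncertain as well where spans overlap, as for Sla, which lies within the span of Tg on the other strand. None of these 10 passed; the limma adjusted p was 0.846 or 0.967.

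**Figure D4:**
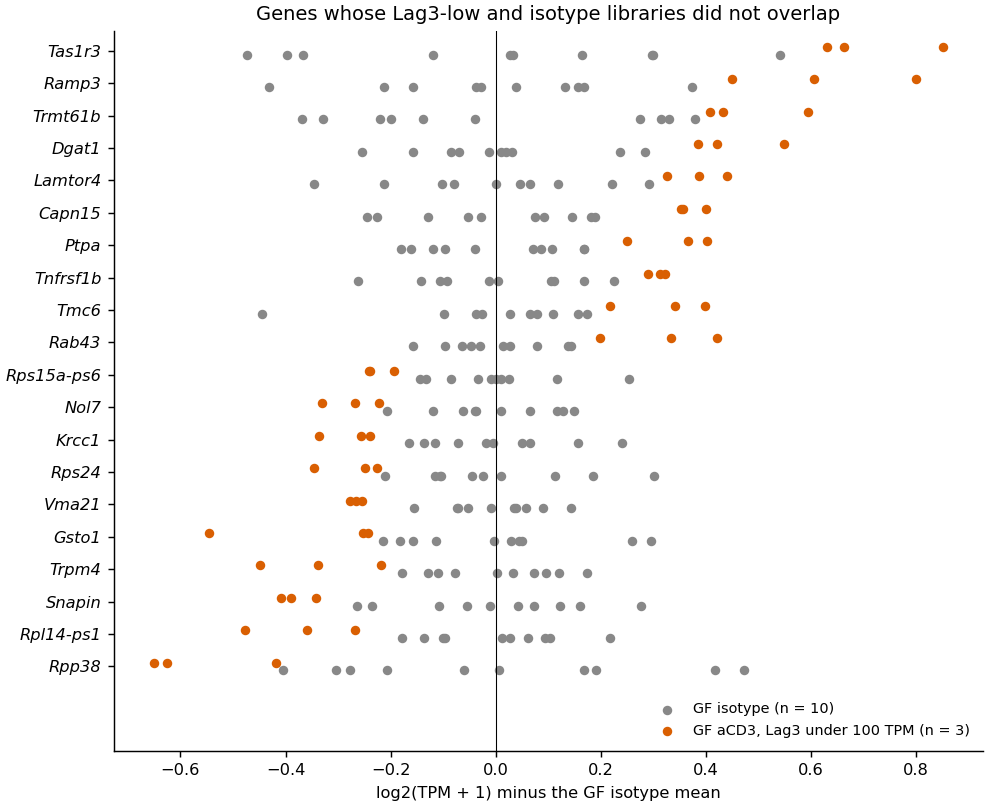
Genes whose groups did not overlap, 10 above (top) and 10 below (bottom) with the largest differences; each point is a library, as log2(TPM + 1) minus the GF isotype mean. The Lag3-low points (orange) clear the isotype points (grey) by small margins, with mean differences between -0.54 and 0.71.

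Genes of the exocrine pancreas stood apart from all other lists in size, though not in the adjusted test. Acinar cells make digestive enzymes and are not CD4+ T cells, which the sort was set to collect. Of 21 acinar genes on the list, 18 were tested; their median difference was 3.10, 17 of 18 had an unadjusted p under 0.05, beside 4.71% of all genes, and 0 passed (lowest limma adjusted p = 0.846). The filter can admit a gene mainly through the Lag3-low libraries, where these genes are high, so the counts and medians describe the genes admitted and support nothing further. The summed level of the 21 genes was 213.8 TPM in F1, 1193 TPM in M3 and 66.5 TPM in M4, against 4.97 to 159.1 TPM with a median of 7.24 TPM in isotype, so only F1 and M3 lay above every isotype library. Ctrb1, a chymotrypsinogen, was 19.4, 164.2 and 7.95 TPM against 0 to 13.7 TPM, and Prss2, a trypsinogen, was 18.6, 98.8 and 8.53 TPM against 0 to 12.7 TPM. Isotype F3 held the highest level of both among the controls. Without M3, the median was 1.94, 16 of 18 genes had an unadjusted p under 0.05 and 0 passed. The Lag3-high libraries held 4.86 to 67.2 TPM. M3, the highest of the 13 in acinar RNA, was also the highest in Mki67. Without the acinar genes the slope on the SPF difference was -0.0194, beside -0.0188 with them. Only 5 acinar genes were tested in SPF, so leaving them out could hardly move a slope over 11759 genes. The part of acinar RNA in the level of single genes was not tested.

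**Figure D5:**
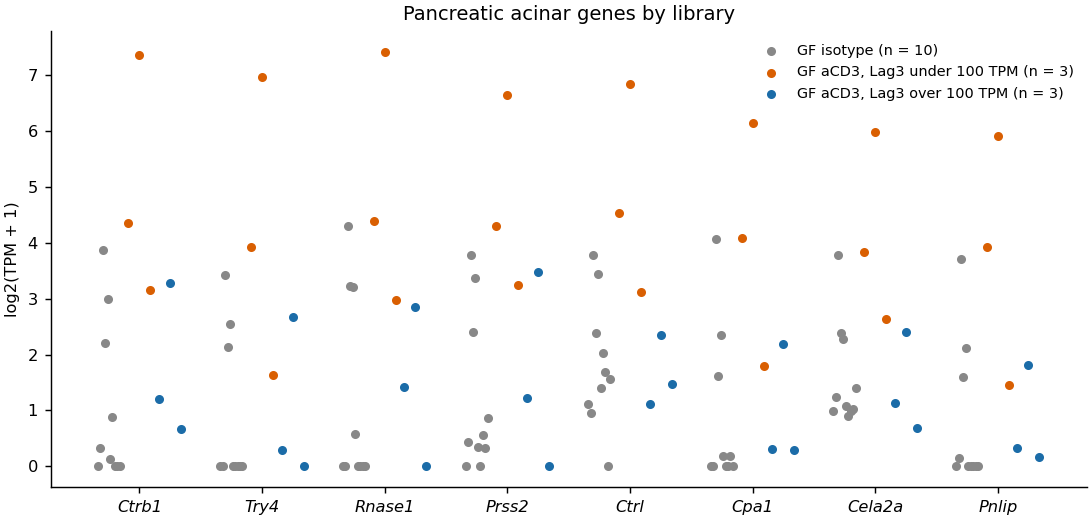
Levels of 8 pancreatic acinar genes, as log2(TPM + 1), in GF isotype, Lag3-low and Lag3-high libraries; each point is a library. The highest point in each gene is the Lag3-low library M3, and the highest isotype point is F3.

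Other cell types showed no such gap. Summed levels in F1, M3 and M4 were 30.4, 111.3 and 45.8 TPM for 15 B and plasma cell genes, within the isotype range of 18.7 to 129.3 TPM. They were 33.2, 41.4 and 43.2 TPM for 20 myeloid genes, within 19.4 to 58.1 TPM, and 45.3, 16.2 and 61.0 TPM for 22 epithelial genes, within 8.68 to 117.4 TPM. For 18 stromal and endothelial genes F1 was at 26.6 TPM, slightly above the highest isotype library at 26.2 TPM, with M3 and M4 at 18.6 and 21.3 TPM. Sums for erythroid genes, for CD8 and gamma-delta T cells and for innate lymphoid and mast cells (ILC) lay within their isotype ranges. Of these 7 lists 1 gene, C1qa of macrophages (0.95), had an unadjusted p under 0.05 (limma adjusted p = 0.967).

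Large differences of any other kind were rare. An absolute log2 difference of at least 1 was found for 181 genes, of which 153 carry symbols of microRNA, small nucleolar RNA or predicted genes, 17 were acinar and 11 were others. Of the others, 9 averaged 5 TPM or more in either group. Among these, Klk1 and Reg1, both made in the pancreas, were highest in M3, at 19.3 and 40.4 TPM against 2.80 and 8.89 TPM at most in isotype. Defa6, Defa17, Defa24 and Defa30, antimicrobial defensins of Paneth cells in the gut epithelium, were lower on average; their isotype medians were 0.478 to 2.63 TPM and their isotype maxima 58.1 to 248.3 TPM. None of the 9 passed the threshold, and they are named here after their values were seen.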

How the data were processed

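Sorted CD4+ T cells were sequenced in 28 libraries. The authors deposited TPM per gene, computed with HOMER's analyzeRepeats.pl for mm10 with transcripts of a gene condensed, per the file headers; the aligner version and use of strand are not given in the sources used here. The deposited Length equalled the genomic span of each named gene, introns included. The labels name both a total RNA kit and polyA RNA. The table's other 26 TPM columns match no sample and were not used. Within each library, TPM times length was a whole multiple of 1 step for 100% of low values (within 0.1 of a read, up to 20 reads), which gave reads per gene. In the 13 libraries 3 reads amounted to 0.123 to 0.323 TPM at a length of 10 kb; this covers counting error only. Libraries correlated with r of 0.930 to 0.970 over 78 pairs, and 0 pairs were identical.

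Genes with at least 1 TPM in at least 3 of the 13 libraries were tested by limma 3.58.1 under R 4.3.3 on log2(TPM + 1), with terms for group and sex, a trend on mean expression and Benjamini-Hochberg adjustment; log2 differences understate the change of low genes. The Lag3-high and SPF contrasts were fitted the same way. Alternatives were the pseudocount, the filter, scaling, the libraries and terms in the fit, array weights and each library left out; limma-voom on recovered reads, gene-by-gene weights, the higher-numbered set of libraries alone and the slope without acinar genes were added after seeing the data. The fit was tested on simulated data. Named genes are 7 fixed genes, the 10 highest and 10 lowest differences among genes without overlap and with a mean of at least 5 TPM, list members without overlap, and the 10 highest and 10 lowest SPF changes, leaving out microRNA, small nucleolar, predicted and sex-linked genes; further genes (markers, acinar genes, large differences, single list members) were named after their values were seen. The groups, the members and the 32 gene lists were chosen with earlier results of these data known. Of 538 list genes, 531 matched by symbol. Figures were drawn with Python 3.11.15 and matplotlib 3.10.9.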

Additional observations from a re-analysis of the deposited data

Results flagged for a closer look

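In sets of 10 isotype values, 7 of 73 had a library far from the others, and some of the sets share genes. The cutoff is nominally passed by about 1 in 20 sets of normally distributed values. TPM values need not be so distributed, and the rate by chance in these data was not measured. Isotype F2 held 31.2 TPM of Mt1 (others 1.46 to 6.66 TPM) and 20.9 TPM of Mt2 (others 0 to 6.56 TPM). Isotype M4 held 60.02 TPM of Cd8a (others 0.944 to 6.997 TPM) and 68.1 TPM summed over genes of CD8 and gamma-delta T cells (others 6.04 to 17.9 TPM), while Cd8b1 was 1.199 TPM there. Isotype F3 held 159.1 TPM of acinar genes (others 4.97 to 77.8 TPM). Isotype F4 held 177.8 TPM of Ptprc (others 129.8 to 151.6 TPM), and isotype M5 held 11.8 TPM of Tmc6 (others 15.3 to 18.7 TPM).

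Only the named genes were looked at for opposite directions. For 5 of them every Lag3-low library lay on one side of its controls and every SPF aCD3 library on the other side of its own. Sla (0.24 in GF Lag3-low and 0.43 in SPF) and Krcc1 (-0.27 and -0.58) lay without overlap on the same side in both. Over all genes tested in SPF, 42.5% did not overlap and 51.6% passed as lower. The difference between the effects was not tested. The log2 differences, GF Lag3-low and then SPF, were 0.71 and -1.43 for Tas1r3, 0.65 and -1.59 for Ramp3, 0.49 and -2.76 for Trmt61b, 0.38 and -0.85 for Capn15, and -0.33 and 0.59 for Gsto1.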

How the results depend on the processing

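The count of genes past the threshold stayed at 0 in each of the 13 fits without 1 library (range 0 to 0, with 322 to 990 genes at an unadjusted p under 0.05) and in 13 of 16 other alternatives. It was 1 in males alone (Mir6538, at a mean of 1 read per Lag3-low library) and 2 in the higher-numbered set of libraries alone, an alternative added after seeing the data (Mir8103 and Mir5129, at under 1 read). It was 164 (105 higher, 59 lower) with array weights, where the estimate of the weights did not converge and M4 weighed 5.85 against 0.508 to 1.44 for the others; weights by the gene-by-gene method, added after seeing the data, gave 0. The replicate block, in which F1, M3 and M4 are paired with the isotype libraries of the same name, called 0 genes (474 at an unadjusted p under 0.05). The deviations of paired libraries correlated with r of -0.108, 0.0421 and 0.0793, so the names are not shown to pair animals. Counts without overlap below isotype were 36 after median of ratios and 44 after quantile normalization; without 1 Lag3-low library, when fewer libraries must separate, they ran from 45 (without M4) to 203 (without M3) below and from 130 (without M4) to 320 (without F1) above. The slope on SPF ran from -0.0406 to -0.000353 without 1 Lag3-low library. Of 1397 alternative values of 50 named genes, 1379 moved by less than 1 SD, 5 moved further and 13 passed, all with array weights; 93 had the other sign from the reported value. Depth limits genes near 3 reads.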
